A study of Mus musculus with 84 samples.

Results

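The subject is the nuclear-encoded part of respiratory complexes I, III and V in liver and epididymal white adipose tissue (eWAT), taken as 72 genes. Members were the rows whose symbol begins with Ndufa, Ndufb, Ndufc, Ndufs, Ndufv, Uqcr or Atp5, with at least 10 reads in at least 6 libraries of a tissue. The tables listed 48794 gene identifiers, of which 48434 carried a symbol and 81 began with one of those prefixes. Of the 81, 7 were left out by name and Ndufa11b and Ndufb4c had no library with enough reads. Liver kept 72 members and eWAT 71, all 71 shared; the additional liver gene, Ndufs6b, is annotated as a processed pseudogene and may hold reads of Ndufs6. Exons of 28 members overlap another gene, 25 of them on the opposite strand, so part of their reads may belong to the neighbour.

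Complex I takes electrons from NADH and passes them to ubiquinone, complex III passes them on to cytochrome c, and both pump protons across the mitochondrial inner membrane. Complex V, the ATP synthase, lets the protons flow back through its membrane part (Fo) and uses the energy to make ATP in its catalytic head (F1). Mitochondrial DNA encodes some subunits of all 3 complexes, so the nuclear genes described here supply only part of each. In liver the chain draws on fatty acid oxidation and feeds ATP to glucose production, and white fat holds fewer mitochondria than brown fat.

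By role, the members were 7 catalytic core subunits of complex I, 29 accessory subunits and 8 assembly factors, which build the complex without staying in it. Complex III was represented by 8 subunits and complex V by 5 subunits of F1, 11 of Fo and its stalks (Atp5f1, Atp5g1, Atp5g2, Atp5g3, Atp5h, Atp5j, Atp5j2, Atp5k, Atp5l, Atp5mpl and Atp5o), and Atp5s (coupling factor B). The assembly factors were Ndufaf1 to Ndufaf8, and complex III comprised Uqcr10, Uqcr11, Uqcrb, Uqcrc1, Uqcrc2, Uqcrfs1, Uqcrh and Uqcrq. Ndufa4 and its paralog Ndufa4l2 were kept apart, because the Ndufa4 protein is now placed in complex IV. The accessory subunits were Ndufa1, Ndufa2, Ndufa3, Ndufa5 to Ndufa13, Ndufab1, Ndufb2 to Ndufb11, Ndufc1, Ndufc2, Ndufs4, Ndufs5, Ndufs6 and Ndufv3. The cytochrome c1 gene Cyc1 and the complex V genes Atpif1 and Usmg5 fall outside the symbol rule.

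The libraries came from male C57BL/6J mice made obese on a 60% high-fat diet, housed singly and 22 weeks old at the start. Mice received a daily subcutaneous dose for 30 days, and all groups stayed on the high-fat diet. In each tissue there were 7 groups of 6 libraries. One group received vehicle, 4 received BI 456906, a dual agonist of the glucagon and GLP-1 receptors, at 3, 10, 20 or 30 nmol/kg, and 2 received the GLP-1 receptor agonist semaglutide at 20 or 100 nmol/kg. The study had 11 mice a group, and the labels do not tie a liver library to a fat library of the same mouse. The design asks whether the dual agonist acts on tissue transcripts beyond the GLP-1 receptor agonist.

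Reads per library ran from 21676902 to 53869104 in liver and from 37573004 to 53996914 in eWAT. Hepatocyte markers (Alb, Apoa1 and 5 others) summed to at least 75265 TPM (transcript counts scaled by length and library) in every liver library. Adipocyte markers (Adipoq, Plin1 and 6 others) summed to at least 11725 TPM in every eWAT library, and the epididymal epithelium markers to at most 0.15 TPM. In eWAT the hepatocyte markers were not at 0: they summed to 116 to 6361 TPM in vehicle and to 466 to 2465 TPM at BI 456906 30 nmol/kg, and 6 of 42 libraries exceeded 2000 TPM.

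Promoters of 4 members are shown because each holds one of the 4 motifs searched for, those of factors known to act on genes of the respiratory chain. RefSeq promoters (GRCm38.p6, 300 bases from 250 before to 50 after the start) were matched for 60 of 72 members. Sequences are given on the strand of the gene, and capitals mark the motif, which is written as its reverse complement in Ndufs3 and Atp5g3 and matches on both strands with overlap in Uqcrc1. The NRF1 motif GCGCATGC stands in the promoter of Uqcrc1 on chromosome 9 (chr9:108936398-108936697, plus strand), the ETS/GABP motif CCGGAAGT in that of Ndufs3 on chromosome 2 (chr2:90904672-90904971, minus strand), the YY1 motif AAGATGGCG in Ndufs7 on chromosome 10 (chr10:80249199-80249498, plus strand), and the ERR motif TCAAGGTCA in Atp5g3 on chromosome 2 (chr2:73911277-73911576, minus strand).
Uqcrc1: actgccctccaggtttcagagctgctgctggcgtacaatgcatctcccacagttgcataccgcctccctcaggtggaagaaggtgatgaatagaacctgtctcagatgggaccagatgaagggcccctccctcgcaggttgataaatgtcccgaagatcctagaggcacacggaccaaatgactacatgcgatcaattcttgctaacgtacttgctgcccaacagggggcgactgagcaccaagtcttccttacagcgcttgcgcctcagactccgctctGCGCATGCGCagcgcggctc
Ndufs3: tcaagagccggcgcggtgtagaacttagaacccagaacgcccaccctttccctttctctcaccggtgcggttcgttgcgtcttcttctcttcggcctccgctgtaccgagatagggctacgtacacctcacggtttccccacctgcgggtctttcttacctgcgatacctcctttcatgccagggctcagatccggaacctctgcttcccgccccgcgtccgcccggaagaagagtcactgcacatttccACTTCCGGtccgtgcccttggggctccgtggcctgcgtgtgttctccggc
Ndufs7: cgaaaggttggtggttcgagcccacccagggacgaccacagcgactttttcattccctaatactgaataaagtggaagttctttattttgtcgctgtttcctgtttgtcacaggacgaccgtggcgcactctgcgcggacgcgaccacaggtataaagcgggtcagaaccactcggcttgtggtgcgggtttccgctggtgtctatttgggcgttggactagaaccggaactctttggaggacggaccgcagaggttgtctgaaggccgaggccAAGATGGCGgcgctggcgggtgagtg
Atp5g3: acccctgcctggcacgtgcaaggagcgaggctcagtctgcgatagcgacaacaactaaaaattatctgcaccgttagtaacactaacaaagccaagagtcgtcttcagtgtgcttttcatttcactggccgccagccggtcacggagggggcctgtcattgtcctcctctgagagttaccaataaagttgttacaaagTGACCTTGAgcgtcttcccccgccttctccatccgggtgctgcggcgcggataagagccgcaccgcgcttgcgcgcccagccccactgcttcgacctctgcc

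Searched on both strands, the NRF1 motif was in promoters of 10 of the 60 members (16.7%) against 824 of 27025 genes with a promoter (3.05%). It was found for Uqcrc1, Uqcr11, Ndufa6, Ndufa8, Ndufa11, Ndufaf4, Ndufaf5, Atp5g2, Atp5k and Atp5l. The YY1 motif was in 8 members (13.3%) against 1.64% of genes, the ETS/GABP motif in 4 (6.67%) against 4.31%, and the ERR motif in 1 (1.67%) against 0.466%. In all, 22 of the 60 held at least 1 of the 4, against 8.93% of genes. A match is a description of these letters in this window and was not tested for binding.

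The members with the highest level were much the same in liver and fat. TPM corrects for transcript length, so it can be compared between genes of a library, but the tables of the tissues were normalized separately. Over 42 libraries, the highest mean levels in liver were those of Atp5b, the catalytic beta subunit (1591 TPM), Atp5g3 of the c-ring (854 TPM) and Uqcrq of complex III (844 TPM). The lowest were Atp5s (2.55 TPM), Ndufa4l2 (1.88 TPM) and Ndufs6b (0.86 TPM). In eWAT the order began with Atp5b (1533 TPM), Atp5e, the epsilon subunit (580 TPM), and Atp5g3 (522 TPM), and ended with the assembly factors Ndufaf5 (9.80 TPM) and Ndufaf6 (7.03 TPM) and with Atp5s (5.62 TPM). Across the 71 shared members the vehicle means of both tissues had a rank correlation of 0.935, given as a description.

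In vehicle mice most members stood lower in fat than in liver, as shares of their libraries. The median ratio of eWAT to liver TPM was 0.844, whereas over the 15297 genes tested in both tissues it was 2.46. For 36 of 71 members all 6 fat values lay below all 6 liver values, which held for 11.8% of genes. For 6 members they lay above, which held for 68.7% of genes, and for 29 the ranges overlapped. These levels were not tested, since the tables were normalized separately.

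All 8 complex III genes were below liver in every library, with a median ratio of 0.718. The accessory subunits of complex I had a median ratio of 0.922 (11 of 29 below, 1 above), the core subunits 0.812 (4 of 7 below), the F1 subunits 0.871 (3 of 5 below) and the Fo and stalk subunits 0.820 (7 of 11 below). The complex I assembly factors differed, with 3 of 8 above liver and 2 below. The smallest ratios were those of the c-ring gene Atp5g1 (0.360), Uqcrq (0.392) and Ndufaf6 (0.476). The largest were those of Ndufa4l2, a hypoxia-responsive paralog of Ndufa4 (8.04), Ndufaf5 (2.11) and Ndufaf7 (1.76).

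**Figure D1:**
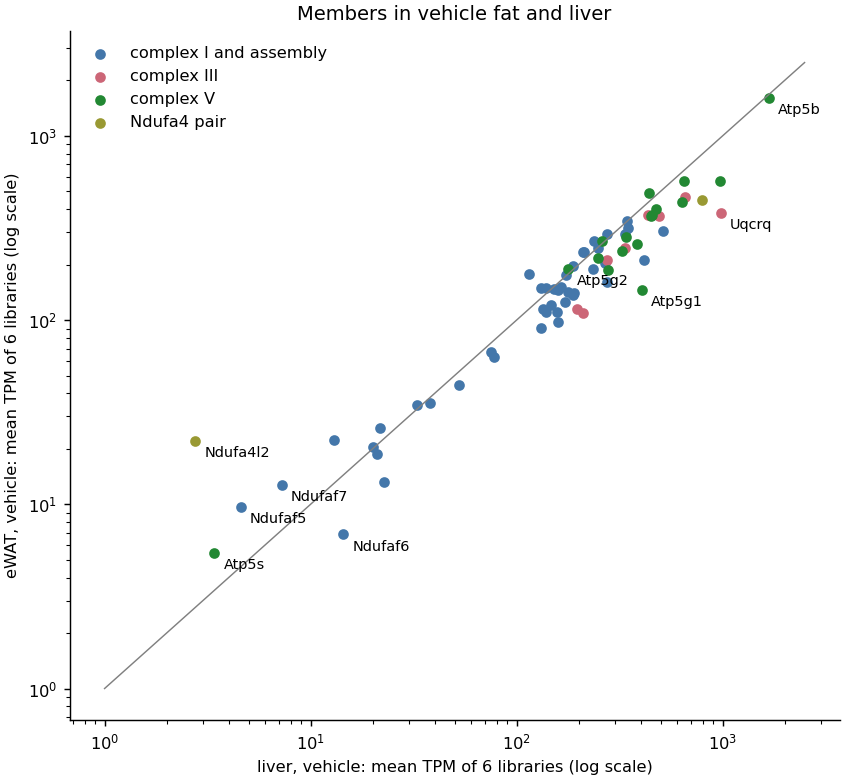
Mean TPM of each of the 71 shared members in the 6 vehicle liver libraries (horizontal, log scale) and the 6 vehicle eWAT libraries (vertical, log scale), coloured by complex, with the line of equal values. Most points sit at or just below the line; Atp5g1 and Uqcrq stand well below it and Ndufa4l2 above.

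The c-ring of complex V is built from one mature protein encoded by 3 genes, Atp5g1, Atp5g2 and Atp5g3, so their shares of the summed level were compared within each library. In vehicle liver Atp5g1 gave 24.8, 26 and 27.8% of the sum (lowest, median and highest of 6), and in vehicle eWAT 13.6, 16.7 and 17.8%. Atp5g2 gave 9.82, 11.6 and 12.4% in liver and 18.3, 21 and 23.2% in eWAT. The ranges of the tissues did not overlap for either gene. The differences were -9.91 and 9.65 percentage points (eWAT minus liver), each with an exact two-sided permutation p of 0.00216, the smallest that 6 against 6 can give, and 0.00325 after adjustment over the 3 paralogs. Atp5g3 gave most of the sum in both tissues, 62.9% in liver and 61.9% in eWAT at the median, and its share differed by 0.259 points (exact p = 0.846). On recovered reads, which are not corrected for length, the differences were -4.62, 2.53 and 2.09 points for Atp5g1, Atp5g2 and Atp5g3, with exact p of 0.00216, 0.00216 and 0.039, so the size of the shifts and the call of Atp5g3 depend on the measure.

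In liver every member had a lower fitted mean in each of the 6 treated groups than in vehicle, and the changes were small. They were tested with limma/voom on the deposited normalized counts over 15964 genes, and a gene passed at a Benjamini-Hochberg adjusted p (FDR) of at most 0.05. BI 456906 lowered 12 of 72 members at 3 nmol/kg, 57 at 10, 61 at 20 and 60 at 30 nmol/kg. The shares of all genes that fell at those doses were 4.93, 18.1, 22.9 and 29.9%. Semaglutide lowered 69 members at 20 nmol/kg, where 23.5% of genes fell, and 71 at 100 nmol/kg, where 24.1% fell. No member passed as higher in any of these 6 comparisons, although 28.9% of all genes rose at BI 456906 30 nmol/kg and 24% at semaglutide 100 nmol/kg.

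The median log2 fold change of the members was -0.15, -0.24, -0.27 and -0.28 along the BI 456906 doses and -0.30 and -0.32 at the semaglutide doses. Over all genes it lay between -0.03 and -0.01. All these comparisons share the same 6 vehicle libraries. Among them, library 48 had a median member deviation of 0.28 from the vehicle mean, where the others lay between -0.12 and 0.03. Without it 53 members fell at BI 456906 30 nmol/kg, with a median of -0.22, against 28.4% of genes. At semaglutide 100 nmol/kg 65 then fell, with a median of -0.26, against 21.7% of genes. As a linear trend on the BI 456906 dose from vehicle to 30 nmol/kg, 57 members fell (29.6% of genes), with a median of -0.08 per 10 nmol/kg. Without vehicle in the trend 30 members fell, against 19.6% of genes. With the threshold of the study, which adds a log2 fold change of at least 1 in size, 2 members passed at BI 456906 30 nmol/kg, Ndufa4l2 and Ndufs6b, the 2 with the lowest log2 fold changes.

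**Figure D2:**
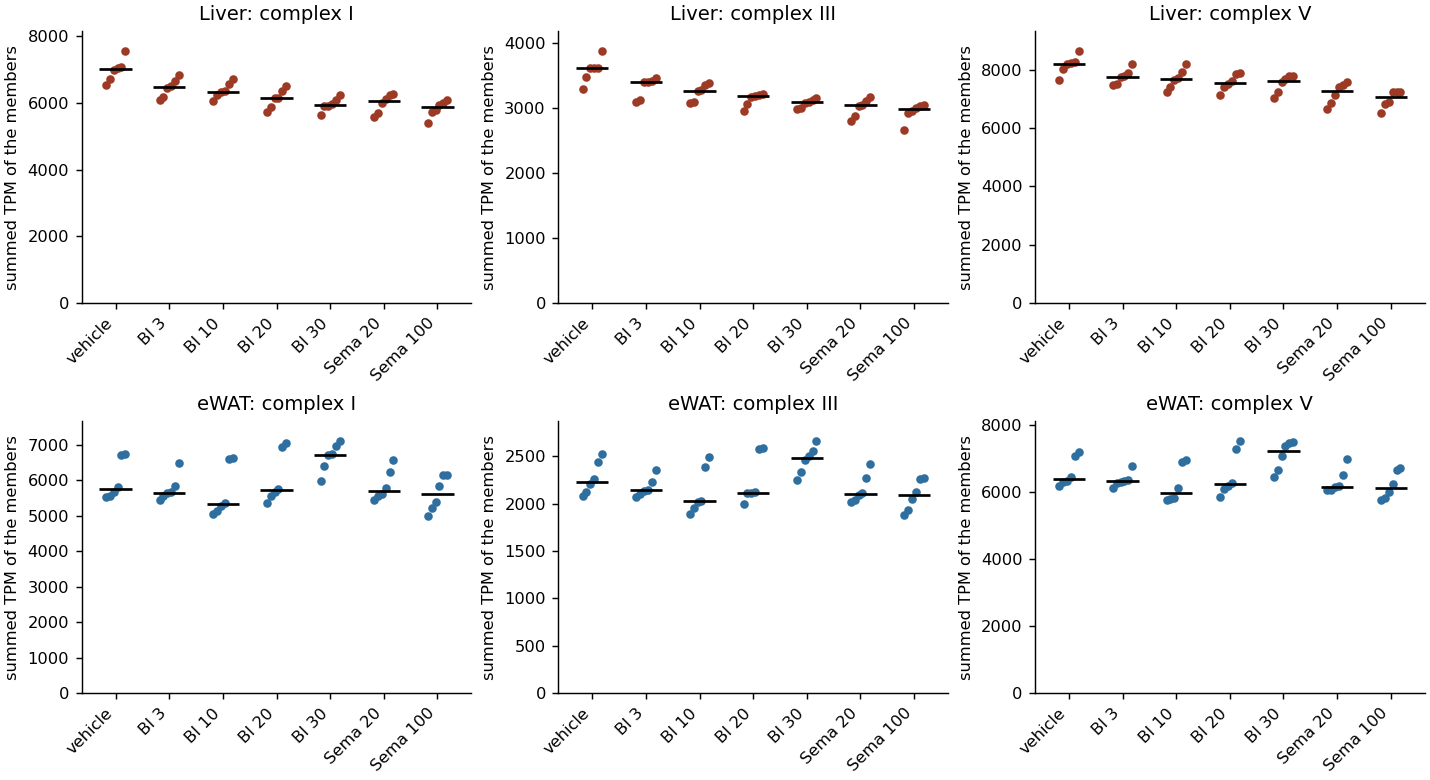
Summed TPM of the members of complexes I, III and V in each library (points) by group in liver (top) and eWAT (bottom), with the group median as a bar; BI is BI 456906 and Sema is semaglutide, with the dose in nmol/kg. In liver the medians of complexes I and III step down from vehicle through the BI 456906 doses; in eWAT the BI 30 median of complex I (6726 TPM) lies near the highest vehicle library (6750 TPM).

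Summed by complex, the vehicle liver libraries held 6545, 7024 and 7551 TPM of complex I transcripts (lowest, median and highest), and the libraries at BI 456906 30 nmol/kg 5647, 5939 and 6232 TPM. Complex III went from 3282, 3613 and 3867 TPM to 2981, 3082 and 3147 TPM. Neither complex overlapped vehicle at this dose. Complex V went from 7663, 8222 and 8639 TPM to 7041, 7638 and 7799 TPM, with overlapping ranges, and to 6527, 7067 and 7261 TPM at semaglutide 100 nmol/kg, all below vehicle. Gene by gene on TPM, 38 of 72 members had all 6 values at BI 456906 30 nmol/kg below all 6 of vehicle, which held for 10.8% of genes. At semaglutide 100 nmol/kg it was 48 members, against 5.51% of genes.

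Among the core subunits of liver complex I, 6 of 7 fell at BI 456906 30 nmol/kg, with a median log2 fold change of -0.21. Ndufs3 measured 171, 177 and 185 TPM in vehicle and 145, 148 and 157 TPM at 30 nmol/kg, with no overlap (log2 fold change -0.30 ± 0.06 SE, FDR 3.27e-05). Ndufv1, which holds the NADH site, fell by 0.26 on the log2 scale, and Ndufs8, Ndufs1 and Ndufv2, which carry iron-sulphur clusters, fell by 0.22, 0.21 and 0.18. Ndufs7 did not pass (-0.09 ± 0.07, FDR 0.221). All 7 fell with semaglutide 100 nmol/kg, by 0.21 to 0.34.

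The accessory subunits fell further, with a median of -0.35 and 25 of 29 passing. Ndufb3, which sits in the membrane arm, measured 108, 113 and 130 TPM in vehicle and 74.8, 79.6 and 86.0 TPM at 30 nmol/kg (-0.57 ± 0.08, FDR 2.96e-07). Ndufs5 measured 215, 241 and 254 TPM in vehicle and 154, 162.5 and 177 TPM (-0.54 ± 0.08). The groups did not overlap for either gene. Ndufb5 (-0.11 ± 0.06, FDR 0.0846) and Ndufb11 (-0.05 ± 0.06, FDR 0.42) were the accessory subunits nearest to 0 and did not pass.

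Of the 8 complex I assembly factors 6 fell. Ndufaf7, a methyltransferase needed for assembly of the complex, measured 6.45, 7.19 and 8.18 TPM in vehicle and 4.17, 4.94 and 5.51 TPM at 30 nmol/kg, with no overlap (-0.63 ± 0.09, FDR 2.22e-07). Ndufaf5, which hydroxylates Ndufs7, fell by 0.54. Ndufaf4 (-0.05 ± 0.12) and Ndufaf6 (-0.10 ± 0.10) did not pass, and Ndufaf4 was the one member that did not pass at semaglutide 100 nmol/kg either (-0.08 ± 0.12).

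In liver complex III, 7 of 8 subunits fell at BI 456906 30 nmol/kg, with a median of -0.30. Uqcrc1, a core protein, measured 260, 277 and 287 TPM in vehicle and 210, 231 and 235 TPM (-0.32 ± 0.06, FDR 2.71e-05). Uqcr11, a small subunit, fell by 0.36, the small subunit gene Uqcrq by 0.32, the other core protein Uqcrc2 by 0.31, the Rieske iron-sulphur protein Uqcrfs1 by 0.22 and Uqcrb by 0.21. The hinge protein gene Uqcrh measured 407, 434 and 459 TPM in vehicle and 419, 427 and 447 TPM at 30 nmol/kg, within the vehicle range, and did not pass (-0.08 ± 0.06, FDR 0.217).

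In liver complex V all 5 F1 subunits fell, with a median of -0.21. Atp5a1 (alpha) measured 617, 630 and 673 TPM in vehicle and 519, 563 and 582 TPM (-0.29 ± 0.06, FDR 9.74e-05), without overlap. Atp5c1 (gamma) fell by 0.28, Atp5e (epsilon) by 0.21 and Atp5d (delta) by 0.14. Atp5b, the most abundant member, measured 1541, 1688 and 1756 TPM in vehicle and 1546, 1675 and 1714 TPM, lay within the vehicle range, and passed narrowly (-0.13 ± 0.06, FDR 0.0455).

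Of the 11 Fo and stalk subunits 7 fell, led by Atp5k (subunit e, -0.36 ± 0.08) and Atp5l (subunit g, -0.30 ± 0.08), both of which take part in joining synthase dimers. The c-ring genes differed among themselves. Atp5g3 fell by 0.27, whereas Atp5g2 (-0.15 ± 0.08, FDR 0.106) and Atp5g1 (-0.03 ± 0.08, FDR 0.777) did not pass. Atp5o, the stalk protein OSCP, did not pass (-0.07 ± 0.06), nor did Atp5h (-0.08 ± 0.06). At semaglutide 100 nmol/kg all 11 fell, by 0.19 to 0.40.

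Outside the complexes proper, Ndufa4 fell by 0.34 in liver, Ndufa4l2 by 1.19 (1.67, 2.66 and 3.85 TPM in vehicle, 0.89, 1.13 and 1.66 TPM at 30 nmol/kg) and Atp5s by 0.75. The pseudogene Ndufs6b fell by 2.06 from a median of 1.86 TPM to 0.20 TPM, near the detection limit. The inhibitor of the reverse reaction of complex V, Atpif1, which is no member, measured 40.1, 56.7 and 58.5 TPM in vehicle and 22.5, 29.6 and 34.1 TPM (-0.92 ± 0.15, FDR 1.35e-06).

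**Figure D3:**
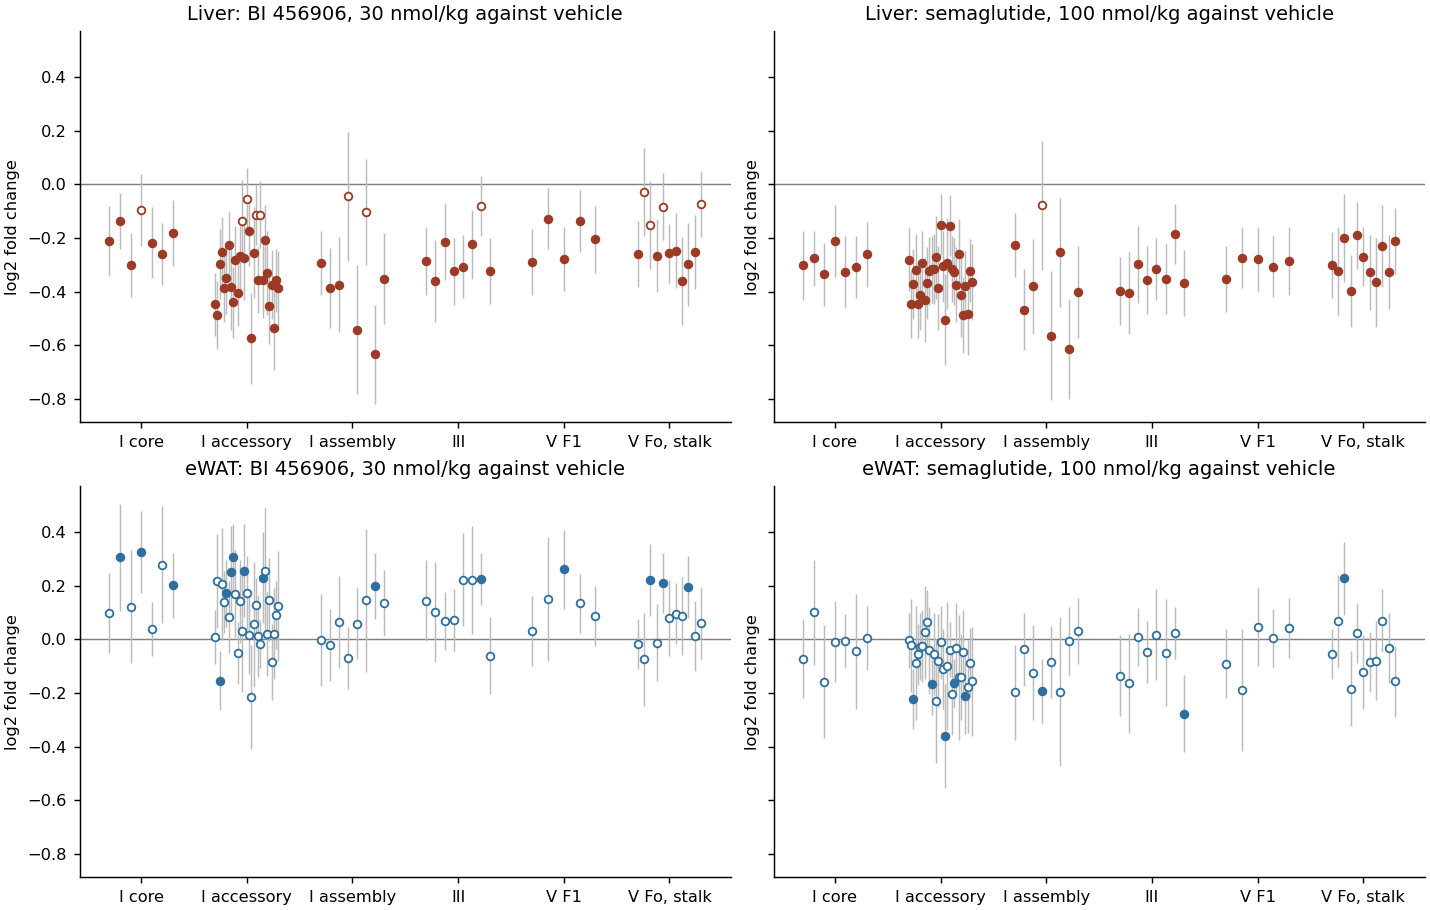
Log2 fold change against vehicle of each member (points, with the 95% confidence interval) by class, for BI 456906 30 nmol/kg (left) and semaglutide 100 nmol/kg (right) in liver (top) and eWAT (bottom); filled points passed at an FDR of 0.05. All liver points lie below 0 with either compound, whereas eWAT points centre above 0 with BI 456906 (median 0.10) and just below it with semaglutide (median -0.07). Ndufa4, Ndufa4l2, Atp5s and Ndufs6b are not drawn.

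Between the compounds at the shared dose of 20 nmol/kg, 0 of 72 members passed in liver (limma/voom; 7 had an unadjusted p under 0.05), where 1.51% of genes were lower and 0.908% higher with BI 456906. The median difference was 0.03, and the quartiles of the members were -0.01 and 0.07. The 95% confidence intervals of single members ran from -1.42 (Ndufs6b) to 0.53 (Atp5s), both among the members with the lowest level. In complex I they ran from -0.14 to 0.18 for the core and from -0.26 to 0.31 for the accessory subunits. They ran from -0.16 to 0.26 for complex III, from -0.12 to 0.21 for F1 and from -0.16 to 0.40 for Fo and stalk. A p that missed the threshold does not show that the compounds act alike. At the highest doses, 30 against 100 nmol/kg, which differ, 3 members were higher with BI 456906: Atp5g1 (0.29 ± 0.08, FDR 0.016), Ndufb7 (0.21 ± 0.06, FDR 0.0217) and Atp5d (0.17 ± 0.06, FDR 0.0462). That comparison called 4.15% of genes higher and 5.59% lower.

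Transcript length moved with the liver result. Members are short, with annotated lengths from 321.5 bases (Atp5k) through a median of 838 to 3632 bases (Ndufaf4), against a median of 2485 for the genes tested in liver. At BI 456906 30 nmol/kg the median log2 fold change of all liver genes was -0.14 up to 600 bases, -0.23 above that to 1000, -0.16 to 2000, -0.03 to 4000 and 0.29 above 4000 bases. The members in the first 4 of these bins, 23, 22, 19 and 8 genes, had medians of -0.34, -0.25, -0.29 and -0.19. At semaglutide 100 nmol/kg the medians of all genes were -0.15, -0.20, -0.13, -0.01 and 0.26, and those of the members -0.33, -0.32, -0.32 and -0.31. Members stood below the genes of their own length in each bin, least so between 600 and 1000 bases at BI 456906 30 nmol/kg.

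With the length trend of each library removed, 31 members were lower in liver and 6 higher at BI 456906 30 nmol/kg, and the median was -0.11. Over all genes 28.3% were then lower and 29.2% higher. At semaglutide 100 nmol/kg 50 were lower and none higher, with a median of -0.17, against 21.7 and 22.7% of genes. The classes kept different amounts. At BI 456906 30 nmol/kg 15 of 29 accessory subunits and 5 of 8 assembly factors were still lower, but 1 of 7 core subunits, 4 of 8 of complex III, 1 of 5 of F1 and 1 of 11 of Fo and stalk. Ndufb11 (0.16), Atp5o (0.15), Atp5h (0.13), Uqcrh (0.12), Ndufb5 (0.10) and Ndufb7 (0.10) were then higher than vehicle. Whether the length trend comes from the animals or from the libraries was not tested.

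**Figure D4:**
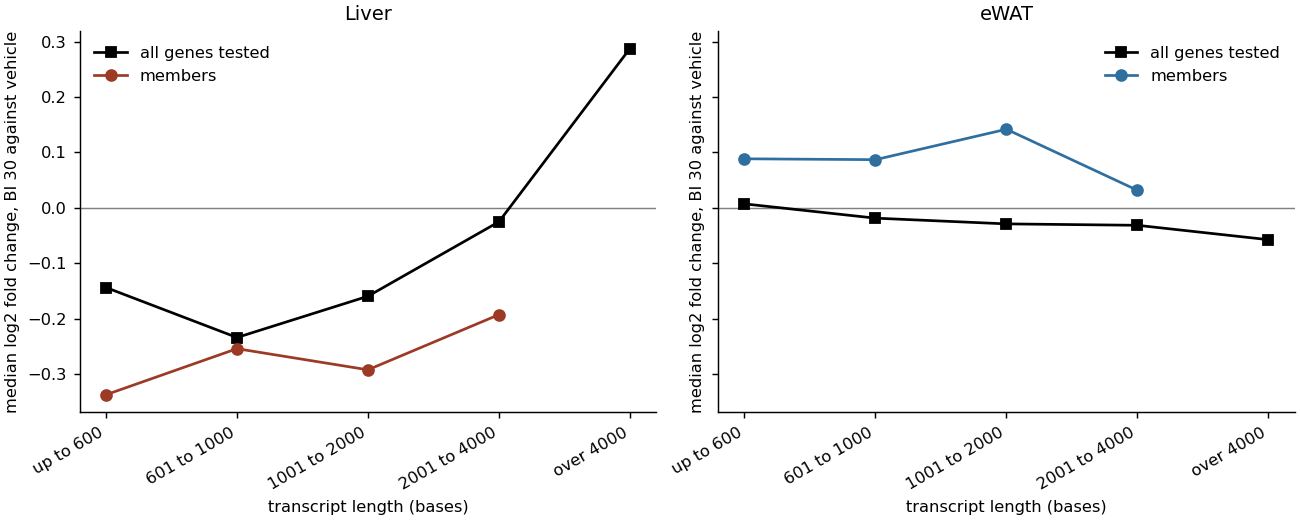
Median log2 fold change at BI 456906 30 nmol/kg against vehicle by transcript length (bases) for all genes tested (black squares) and for the members (coloured circles), in liver (left) and eWAT (right). In liver all genes run from -0.14 in the shortest bin to 0.29 in the longest and the members lie below them; in eWAT the line of all genes is nearly flat and the members lie above it.

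Other genes of oxidative metabolism were read from lists. At BI 456906 30 nmol/kg in liver, all 4 genes of complex II, succinate dehydrogenase, fell (-0.42 for Sdha to -0.34 for Sdhd), as they did with the length trend removed. Of the 13 nuclear genes of complex IV tested, 11 fell and 1 rose, Cox6b2 (2.04), an isoform known from testis, and with the trend removed 5 fell and 1 rose. Of the 13 citrate cycle genes 9 fell, among them Suclg1 (-0.55) and Cs (-0.31), and 3 rose, Fh1 (0.79), Idh3a (0.37) and Ogdh (0.23), and with the trend removed 6 fell and 2 rose. Of the 13 protein genes of mitochondrial DNA, 5 fell, led by mt-Nd3 (-0.91), and 2 rose, mt-Nd6 (0.47) and mt-Nd5 (0.35); the last 2 are neighbours on opposite strands, and the strand setting of the counting is not given in the sources used here. With the trend removed 2 of the 13 fell and 4 rose. At semaglutide 100 nmol/kg all 4 genes of complex II fell, as did 11 of 13 of complex IV. Of the 13 citrate cycle genes 10 fell, and of the 13 of mitochondrial DNA 6 fell. None of these lists held a gene that rose at that dose.

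The regulators of mitochondrial genes went the other way in liver. Of 12 tested, 7 rose and none fell (10 and none with the trend removed): the coactivators Ppargc1a (1.92), Pprc1 (1.45) and Ppargc1b (1.33), the receptor Ppara (1.46), the factors Gabpa (0.48) and Nrf1 (0.39), and the mitochondrial RNA polymerase Polrmt (0.53). Esrra (-0.09) and Tfam (0.07) did not pass. Ribosomal protein genes served as other short transcripts. Of 83 cytosolic ones, 16 fell and 2 rose, with a median of -0.04, and of 77 mitochondrial ones 51 fell and 3 rose, with a median of -0.23. With the length trend removed the cytosolic list turned, to 3 lower and 53 higher, and the mitochondrial list stood at 28 lower and 11 higher. At semaglutide 100 nmol/kg 8 of the 12 regulators rose and none fell. Of the ribosomal protein genes, 16 cytosolic ones fell and none rose at that dose, and 54 mitochondrial ones fell and 1 rose.

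Cell markers also moved in liver. The summed hepatocyte markers went from 75265, 77363 and 89524 TPM in vehicle to 91456, 99729 and 105488 TPM at BI 456906 30 nmol/kg, with 5 of 7 higher and 2 lower. The stellate markers went from 82.6, 105 and 131 TPM to 71.3, 72.4 and 75.7 TPM, with 2 of 3 lower, and the cholangiocyte markers from 35.9, 79.9 and 161 TPM to 16.2, 21 and 54.9 TPM, with 2 of 4 lower. Of the fibroblast markers 4 of 5 were lower and 1 higher, of the macrophage markers 4 of 8 lower and of the adipocyte markers 3 of 4 tested lower. The macrophage sum did not fall at the median, with 220, 255 and 391 TPM in vehicle and 151, 259 and 273 TPM at this dose. In bulk tissue, fewer cells of a type and less RNA per cell cannot be told apart. Per library, the median deviation of the members from the vehicle mean was related to the summed endothelial markers over the 42 livers (Pearson r = -0.71, permutation p = 1e-05, the smallest given by 100000 permutations; adjusted over 26 relations p = 5.2e-05). Spearman's rho was -0.57 (permutation p = 0.00013, adjusted p = 0.000422), and r was -0.61 without the 2 libraries farthest out and -0.70 within groups. The hepatocyte markers gave r = -0.47 (permutation p = 0.00195, adjusted p = 0.00563; rho = -0.44, adjusted p = 0.0103), but 0.17 within groups, and -0.44 without 2 libraries. The stellate markers gave r = 0.40 (permutation p = 0.00949, adjusted p = 0.0247; rho = 0.42, adjusted p = 0.0167), but -0.17 within groups, and 0.30 without 2 libraries, so neither relation held within groups. The part of these markers in the member result was not tested.

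In eWAT few members passed, and a member that did not pass may still have changed. None of 71 passed at BI 456906 3, 10 or 20 nmol/kg (limma/voom; 0, 3 and 10 had an unadjusted p under 0.05, and no other tool was run at these doses). Few genes passed there at all: 0% were lower and 0.00539% higher at 3 nmol/kg, 0.464 and 0.0486% at 10, and 2.91 and 1.36% at 20 nmol/kg. At 30 nmol/kg 14 members rose and 2 fell, against 10.9 and 13% of the 18536 genes tested. The median log2 fold change was 0.10, and -0.03 over all genes.

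Of the core subunits of complex I in fat, 3 of 7 rose at 30 nmol/kg, with a median of 0.20. Ndufs7 measured 140, 151 and 167 TPM in vehicle eWAT and 170, 202 and 210 TPM at 30 nmol/kg, without overlap (0.33 ± 0.07, FDR 0.00185). Ndufv2 measured 104, 114 and 129 TPM in vehicle and 127, 134 and 152 TPM, with a small overlap (0.20 ± 0.06, FDR 0.0134). Ndufs1 (0.10), Ndufs3 (0.12), Ndufs8 (0.04) and Ndufv1 (0.28) did not pass.

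Of the accessory subunits 5 of 29 rose and 1 fell. Ndufa6, which is one of the subunits carrying the acyl carrier protein, measured 193, 212 and 225 TPM in vehicle and 236, 274 and 284 TPM (0.30 ± 0.06, FDR 0.00047), without overlap. Ndufb10 rose by 0.26, Ndufa5 by 0.25, Ndufb8 by 0.23 and Ndufa2 by 0.17. Ndufa11 fell by 0.15 on the log2 scale, and Ndufb3 (-0.22 ± 0.10) did not pass. Among the assembly factors Ndufaf7 rose by 0.20, and Ndufaf6 (0.15), Ndufaf2 (-0.02) and Ndufaf4 (-0.07) did not pass.

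In complexes III and V of fat, 1 of 8 and 4 of 16 rose. Uqcrh measured 350, 369 and 404 TPM in vehicle and 418, 427 and 472 TPM at 30 nmol/kg, without overlap (0.22 ± 0.05, FDR 0.00107). Atp5c1 measured 202, 212 and 239 TPM in vehicle and 217, 278 and 288 TPM, with overlap (0.26 ± 0.07, FDR 0.00886). Atp5g2 rose by 0.22, Atp5h (subunit d) by 0.21 and Atp5l by 0.19. Uqcrc1 (0.07), Uqcrc2 (0.22), Uqcrfs1 (0.22), Atp5a1 (0.03), Atp5b (0.15), Atp5e (0.09), Atp5f1 (-0.02), Atp5g1 (-0.07) and Atp5g3 (-0.01) did not pass, nor did Uqcrb (0.07) and Uqcrq (-0.06), and Ndufa4l2 fell by 0.31. On TPM, 5 members had all 6 values above all 6 of vehicle, which held for 3.41% of genes: Ndufa6, Ndufb5, Ndufs7, Uqcrh and Atp5h. No member lay wholly below, against 2.9% of genes. On the log2 counts per library size used in the fit, no member lay wholly above vehicle, against 4.05% of genes, so the separation in fat depends on the measure.

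With semaglutide in fat, 1 member passed at the lower dose and 8 at the higher. At 20 nmol/kg Ndufa11 fell by 0.22 and no other member passed, against 4.54% of genes lower and 1.8% higher. At 100 nmol/kg 7 of 71 fell and 1 rose, against 9.42 and 5.48% of genes, with a median of -0.07. The share that fell was near the background and the share that rose below it. With only these 2 groups fitted, 0 members passed in either direction, against 4.15% of genes lower and 1.9% higher. Those that fell were Ndufb3 (-0.36 ± 0.10), Uqcrq (-0.28 ± 0.07), Ndufa11, Ndufs4, Ndufaf4, Ndufa8 and Ndufb7, by 0.16 or more. Atp5g2 rose by 0.23, with 172, 192 and 196 TPM in vehicle and 202, 221 and 252 TPM. It was the one member of 71 with no overlap, against 1.19% of genes above and 2.21% below, so this count is at the background too.

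Between the compounds at 20 nmol/kg 0 of 71 members passed in eWAT (limma/voom; 1 had an unadjusted p under 0.05, and the 95% confidence intervals ran from -0.29 to 0.36), and 0% of genes passed in either direction. At 30 against 100 nmol/kg 0 of 71 passed (limma/voom). Unadjusted, 50 had a p under 0.05 and 68 were higher with BI 456906, with a median difference of 0.19 and intervals from -0.31 to 0.63. The share of all genes at that unadjusted level is not given, and the members were measured in the same libraries. These counts are therefore not separate results, and no conclusion is drawn from them. Over all genes 0.0108% passed as higher and 0% as lower. Along the BI 456906 dose 23 members rose and 2 fell in eWAT, against 13.8 and 15.8% of genes, led by Ndufs7 and Ndufa6 (0.11 each per 10 nmol/kg).

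The spread between fat libraries of one group was wide. In vehicle eWAT, complex I summed to 5544, 5746 and 6750 TPM, and at 30 nmol/kg to 5979, 6726 and 7100 TPM; the vehicle libraries 5 and 6 lay at the level of the treated ones. Complex III summed to 2075, 2233 and 2520 TPM against 2247, 2477 and 2657 TPM, and complex V to 6175, 6395 and 7214 TPM against 6463, 7244 and 7514 TPM, all overlapping. Without vehicle library 5 the members that rose at 30 nmol/kg numbered 25, without vehicle library 6 they numbered 28, and without BI 456906 30 nmol/kg library 28 they numbered 22. The shares of all genes that rose were then 13.9, 12.8 and 12.7%.

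The level of the members followed the cell markers of the fat libraries. The macrophage markers (Adgre1, Cd68 and 6 others, none at 0 in all libraries) summed to 3176, 6884 and 8343 TPM in vehicle and to 3729, 4540 and 9224 TPM at BI 456906 30 nmol/kg. The adipocyte markers summed to 19215, 21463 and 36860 TPM and to 17476, 30413 and 32587 TPM. Of the hepatocyte markers 3 of 7 fell at that dose. Of the macrophage markers 0 of 8 passed (limma/voom), and of the adipocyte markers 1 of 8 fell. Other lists moved as well. Of the brown or beige adipocyte markers 2 of 5 rose, with sums of 54.8, 84.5 and 99.2 TPM in vehicle and 67.7, 138 and 194 TPM at that dose. Of the mesothelial markers 3 of 4 rose, of the fibroblast markers 1 of 5 and of the stellate markers 1 of 3. Of the T and B cell markers 2 of 5 fell.

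Over the 42 eWAT libraries, the median deviation of the members from the vehicle mean was related to the log2 sum of the macrophage markers with Pearson r = -0.81 and Spearman's rho = -0.75, and to that of the adipocyte markers with r = 0.76 and rho = 0.75. Each had a permutation p of 1e-05, the smallest given by 100000 permutations, with adjusted p of 5.2e-05 for r and 8.67e-05 for rho over 26 relations. Without the 2 libraries farthest out on the marker sum r was -0.79 and 0.75, and within groups -0.81 and 0.79. The hepatocyte markers were related as well (r = 0.61, permutation p = 3e-05, adjusted p = 0.00013; rho = 0.61, r = 0.64 without 2 libraries, 0.58 within groups), as were the brown or beige adipocyte markers (r = 0.79, permutation p = 1e-05, adjusted p = 5.2e-05; rho = 0.79, 0.78 without 2 libraries, 0.71 within groups). Other lists were related too. The cholangiocyte markers gave r = -0.64 (permutation p = 1e-05, adjusted p = 5.2e-05, rho = -0.62, -0.68 within groups). That list summed to 40, 61.2 and 118 TPM in vehicle eWAT and to 35.9, 79.9 and 161 TPM in vehicle liver. It thus did not set the tissues apart and may not mark that cell type in fat. The endothelial markers gave r = 0.57 (permutation p = 0.0001, adjusted p = 0.000371, rho = 0.65, 0.59 within groups). The red cell markers gave r = 0.51 (permutation p = 0.00059, adjusted p = 0.00192, rho = 0.58, 0.58 within groups). The relation was thus not particular to macrophage and adipocyte markers. All of these are shares of the same libraries.

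**Figure D5:**
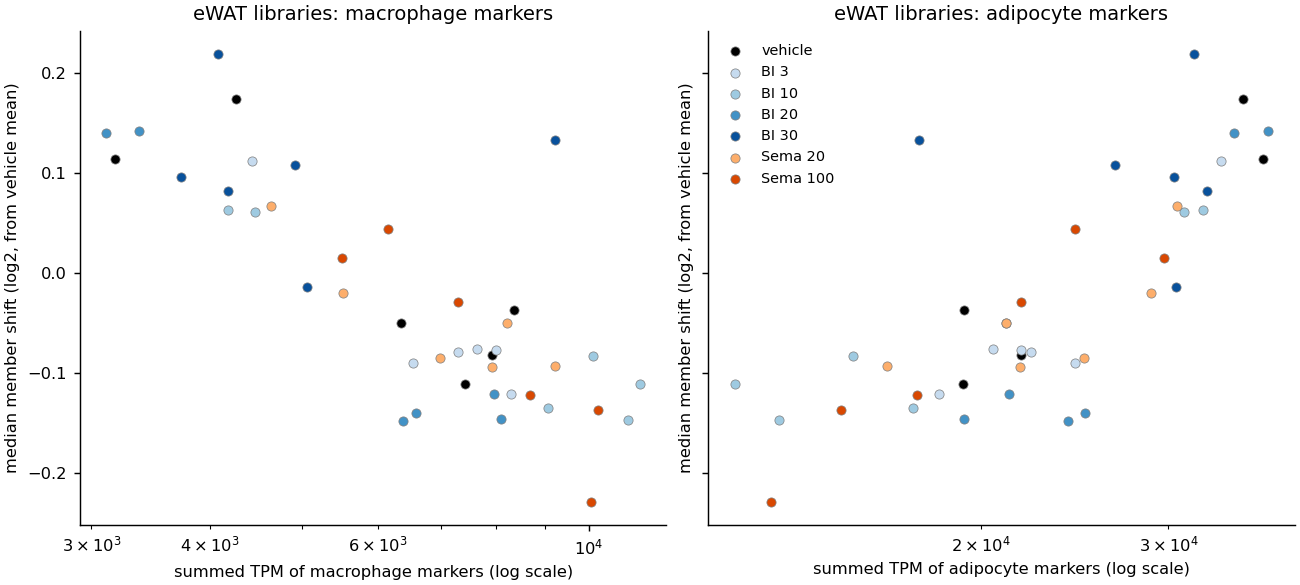
Median log2 deviation of the 71 members from the vehicle mean in each of the 42 eWAT libraries against the summed TPM (log scale) of macrophage markers (left) and of adipocyte markers (right), coloured by group. Libraries with low macrophage and high adipocyte sums hold the high member values, 2 vehicle libraries (black) among them.

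With the log2 macrophage sum as a covariate 21 members rose and 4 fell at BI 456906 30 nmol/kg, with a median of 0.05, while 15.7% of all genes rose and 20.1% fell. With the adipocyte sum 22 rose and 3 fell, with a median of 0.06, while 15.6% of genes rose and 20.2% fell. Both shares of all genes were above those of the fit without a covariate. Without the 6 libraries over 2000 TPM of hepatocyte markers 5 of 71 rose and none fell, with a median of 0.08, and 6.71% of all genes rose and 7.03% fell, so this count is at the background. These 3 fits were chosen after the data had been seen. What part cell makeup has in the fat result was not tested beyond them.

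Transcript length was weighed in fat too. The medians of all genes at BI 456906 30 nmol/kg ran from 0.01 up to 600 bases to -0.06 above 4000 bases. With the length trend removed 16 members rose and 2 fell, against 11.8 and 12.3% of genes. The median of the members was then 0.069, against 0.095 with the trend kept. What part length has in the fat result was not tested. Of the cytosolic ribosomal protein genes, 64 of 84 rose, with a median of 0.27. Of complex IV 5 of 16 genes rose, among them Cox6b2 (0.95) and Cox8b (0.84), a brown fat isoform that is also among the brown or beige markers, and Ppargc1a rose by 1.15. Of the genes of mitochondrial DNA mt-Nd3 alone rose (0.50), and 1 of 4 genes of complex II did, Sdhb (0.21). At semaglutide 100 nmol/kg 68 of the 84 cytosolic ribosomal protein genes rose, with a median of 0.25. Of complex IV 0 of 16 rose and 1 fell at that dose, and of complex II none passed.

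The effect of BI 456906 30 nmol/kg was compared between tissues in one limma/voom fit of all 84 libraries over 15297 genes. For 67 of 71 members the log2 fold change was higher in eWAT than in liver, against 25.3% of genes, and the median difference was 0.48, against 0.08 over all genes. All 7 core subunits, 28 of 29 accessory subunits, 8 of 8 of complex III, 5 of 5 of F1 and 10 of 11 of Fo and stalk passed. Ndufa4l2 (0.98 ± 0.25) and Ndufaf7 (0.94 ± 0.11) differed most, and Atp5g1 (0.06 ± 0.12), Ndufaf4 (0.08 ± 0.14), Ndufab1 (0.28 ± 0.14) and Ndufaf6 (0.36 ± 0.17) did not pass. For semaglutide 100 nmol/kg the same contrast, added after the data had been seen, called 46 members higher, against 16.7% of genes, with a median of 0.32. On log2(TPM + 1) it called 22, against 9.35% of genes, with a median of 0.17, and for BI 456906 57, against 16.3%, with a median of 0.31. Taken as the difference of the single-tissue fits, 61 members were higher for BI 456906, against 20.8% of genes, with a median of 0.37. For semaglutide 42 were higher, against 15.8% of genes, with a median of 0.26.

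With the length trend of each library removed, 29 members were higher in eWAT and 1 lower for BI 456906, with a median difference of 0.18, against 17.5 and 23.4% of genes. For semaglutide 6 of 71 were higher, with a median of 0.06, against 10.4% of genes; this share of members is no larger than the background.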

How the data were processed

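RNA-seq was made from 42 liver and 42 eWAT libraries, 7 groups of 6 per tissue, taken from the labels. The submitters' processing notes name STAR 2.5.2b, RSEM 1.3.0, featureCounts 1.5.1 and FastQC 0.11.5 (mm10/GRCm38) without roles. The labels and the study's methods differ on the library kit and instrument. The authors deposited, per tissue, a signal of gene counts divided by one size factor per library, and TPM. Values were whole multiples of one step in each library (100% within a tolerance of 0.01 reads), which gave the reads behind them. Genes were tested with limma 3.58.1 voom on the deposited signal (edgeR 4.0.16 TMM factors and filterByExpr, prior count 0.5, R 4.3.3), in one fit per tissue with 35 residual degrees of freedom. Benjamini-Hochberg adjustment ran over all genes, and errors are SE. The study's methods used limma/voom too, with an added fold threshold. DESeq2 1.42.0 and the edgeR quasi-likelihood test were run on recovered reads. Length trends were removed per library with a loess on transcript length. Scripts were tested on simulated data. The column names of all libraries share one prefix of date and run. Mice were housed singly, but the labels do not name the mouse behind each library, so p-values measure the spread between these libraries. No 2 libraries of a group agreed within sampling noise.

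Values are given for the catalytic subunits (1 of them is counted but not reported here), the c-ring genes, Ndufa4, Ndufa4l2 and Atpif1, and for the members with the largest and smallest change per class, level and ratio of fat to liver. Other members named were called in a comparison and were chosen after their values were seen. The members and lists were chosen with earlier results of these data known. Correlations used 100000 permutations, with Python 3.11.15 and scipy 1.17.1.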

Additional observations from a re-analysis of the deposited data

Results flagged for a closer look

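Of 98 groups of 6 values tested for a library far from the others, 5 held one, and chance flags about 1 in 20 groups. In liver at BI 456906 30 nmol/kg, library 71 had a median member shift of -0.45 on the log2 scale against vehicle, where the others lay between -0.28 and -0.23. In liver at semaglutide 100 nmol/kg, library 81 had a complex III sum of 2654 TPM, where the others lay between 2925 and 3035 TPM. In liver at BI 456906 10 nmol/kg, Atp5g1 gave 27.7% of the Atp5g sum in library 58, and 29 to 29.7% in the others. In eWAT at BI 456906 3 nmol/kg, library 9 had a member shift of 0.11 (others -0.12 to -0.08) and a complex V sum of 6793 TPM (others 6137 to 6369 TPM).

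The effects of a compound differed between tissues for 67 of 71 members at BI 456906 30 nmol/kg and for 46 of 71 at semaglutide 100 nmol/kg, by a test of the difference itself (limma/voom). Among the named members, the eWAT minus liver difference for BI 456906 was 0.94 for Ndufaf7 (FDR 1.84e-10), 0.85 for Ndufa6 (FDR 1.99e-11), 0.65 for Atp5c1 (FDR 1.09e-07), 0.64 for Uqcrc2 (FDR 1.23e-06), 0.60 for Atp5l (FDR 3.94e-07) and 0.49 for Ndufv2 (FDR 3.42e-06).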

How the results depend on the processing

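Counts of members are given as lower or higher at FDR 0.05. With the length trend removed, liver BI 456906 30 nmol/kg went to 31 lower and 6 higher (28.3 and 29.2% of all genes). The liver dose slope went to 31 and 8 (28.2 and 29.5%), and the tissue difference to 29 higher and 1 lower (17.5 and 23.4%). With length taken from reads per TPM, liver BI 456906 30 nmol/kg went to 33 and 9 (28.1 and 29.5%). The liver slope then went to 34 and 9 (28.1 and 29.9%). Semaglutide 100 nmol/kg then had 47 lower in liver (21.3%) and 0 higher in eWAT (5.4%). The named liver genes that turned positive with the trend removed were Atp5d 0.075, Atp5o 0.15, Ndufb5 0.10, Ndufb11 0.16 and Uqcrh 0.12, and with length from reads per TPM Atp5d 0.10, Atp5g1 0.15, Ndufs7 0.14, Atp5o 0.16, Ndufv2 0.035, Atp5b 0.067, Ndufb5 0.12, Ndufb11 0.18 and Uqcrh 0.12. With the fold threshold of the study, 2 stayed lower in liver for BI 456906, 1 for semaglutide, and 0 for the slope, for every eWAT comparison and for the tissue difference. Without vehicle the liver slope called 30 lower (19.6% of genes) and the eWAT slope 0 lower (10.5%).

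In eWAT at BI 456906 30 nmol/kg, 24 rose with library size alone (15.2% of genes, against 10.9% in the main fit) and 30 with quality weights (17.4%). With the adipocyte covariate 22 rose (15.6%), and without the hepatocyte-marker libraries 5 (6.71%). The lower calls were 1 with RLE factors (12.5%) and on log2(TPM + 1) (11.1%), and 4 with the macrophage covariate (20.1%). They were 0 with library size (9.75%), no filter (5.45%), only 2 groups (7.64%) or without those libraries (7.03%). For eWAT semaglutide, 4 were lower with no filter (4.26% of genes) and 0 with only 2 groups (4.15%). The higher calls were 0 with quality weights (5.59%) or only 2 groups (1.9%). They were 2 with the macrophage (10.5%) or the adipocyte covariate (9.47%). The eWAT slope called 6 higher without the hepatocyte-marker libraries (8.46% of genes). It called 1 lower with RLE factors (14.6%) and on log2(TPM + 1) (13.3%). It called 0 lower with library size (11.3%), no filter (6.33%) or without those libraries (7.46%). With quality weights (28.5%), the macrophage (19.7%) or the adipocyte covariate (20.1%) it called 4 lower. On recovered reads the Atp5g1, Atp5g2 and Atp5g3 shares differed by -4.62, 2.53 and 2.09 points, and Atp5g3 passed. On log2(TPM + 1) the tissue difference for semaglutide called 22 higher, and with the length trend removed 6. The cause was not tested.

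Leaving out each library, liver BI 456906 called 53 to 61 lower (27.5 to 29.6% of genes) and semaglutide 65 to 71 (20.5 to 23.8%), with 0 higher. In eWAT BI 456906 called 10 to 28 higher (9.93 to 14.4% of genes) and 0 to 1 lower (8.32 to 11.3%). Semaglutide called 2 to 9 lower (5.64 to 10.5%) and 0 to 1 higher (3.36 to 7.64%). The lower calls were 4 without vehicle library 2, 3 without 5, 2 without 6, and 4 without semaglutide library 40, 41 or 42. The higher calls were 0 without vehicle library 6 or semaglutide library 40. The Atp5g1, Atp5g2 and Atp5g3 shares differed by -10.2 to -9.38, 9.22 to 10.2 and -0.55 to 0.80 points, the last turning to -0.26 without liver vehicle library 48, and to -0.33 and -0.55 without eWAT vehicle libraries 5 and 6. No paired analysis was possible because library numbers differ in every group. Of the other alternatives for named members, 1570 kept direction and call and 96 kept direction but lost the call.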
